A study of Mus musculus with 4 samples.

Results

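The leukemia fusion ETV6-RUNX1 was expressed in wild-type mouse fetal liver progenitors, and gene expression was set against that of progenitors of the same genotype carrying a control retrovirus. For each gene the log2 level on the WT+Ctrl array was subtracted from that on the WT+ETV6-RUNX1 array, over every gene with a level of 6 or more on at least 1 of these arrays. That left 6123 of the 18113 genes on the array. Each culture gave 1 array and neither side has a replicate, so no difference could be tested and every value below is a description of these arrays.

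The series holds 4 groups with 1 array each: WT+ETV6-RUNX1, WT+Ctrl, Btg1-/-+ETV6-RUNX1 and Btg1-/-+Ctrl. All cells were c-Kit+ Ter119- progenitors from fetal livers of C57BL/6J embryos at embryonic day 13.5, selected with magnetic beads, where Ter119 marks erythroid cells. WT embryos had intact Btg1, and Btg1-/- embryos lacked this antiproliferative co-regulator. Cells were expanded for 24 hours, infected with the ETV6-RUNX1 or the control (Ctrl) retrovirus, kept for 48 hours and then cultured for 12 days. In all groups the medium held stem cell factor at 100 ng/ml, interleukin 7 at 20 ng/ml and FLT3 ligand at 10 ng/ml. The number of embryos behind a culture, the share of infected cells and the promoter that drove the fusion are not given in the sources used here.

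RUNX1 is a DNA-binding transcription factor that works with its partner CBFB and is needed for the formation of blood stem cells. ETV6-RUNX1 joins the amino-terminal part of the repressor ETV6 to nearly all of RUNX1, and arises before birth in many children who later develop B-cell precursor leukemia. Interleukin 7 drives mouse B-cell progenitors to divide, and stem cell factor, the ligand of KIT, is the main growth factor of mast cells, the granule-filled cells that carry IgE receptors.

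Levels are log2 values normalized by the robust multi-array average (RMA), a method that makes the distributions of the arrays alike. Levels below 6 were raised to 6, and a gene with 1 array below 6 has a fold given as "at least". At or above this floor lay 5869 genes on the WT+ETV6-RUNX1 array and 5889 on the WT+Ctrl array, and 5635 on both. Over these 5635 the arrays correlated at Pearson r 0.984, a correlation across genes, which are not independent replicates. The "spread" of a gene is the robust standard deviation of the differences of its neighbours in mean level, 250 above and 250 below it. The median spread was 0.284 at mean levels of 7 to 8 and 0.138 at 10 or more, and it contains no variation between cultures. Of the control genes, Actb was at 12.12 in WT+ETV6-RUNX1 and 12.26 in WT+Ctrl, Gapdh at 13.99 in WT+ETV6-RUNX1 and 14.06 in WT+Ctrl, and Hprt at 10.89 in WT+ETV6-RUNX1 and 10.98 in WT+Ctrl. Of the genes on which the rule turned by the smallest margin, Ska2 entered with 5.82 in WT+ETV6-RUNX1 and 6.0007 in WT+Ctrl, and Aida stayed out with 5.9991 in WT+ETV6-RUNX1 and 5.84 in WT+Ctrl.

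The transgene itself could not be read. Mouse Etv6 lay below the floor on every array, and Runx1 stood at 8.03 in WT+ETV6-RUNX1 and 8.20 in WT+Ctrl. Btg1 was at 11.97 in WT+ETV6-RUNX1 and 11.87 in WT+Ctrl, against 9.97 in Btg1-/-+ETV6-RUNX1 and 9.02 in Btg1-/-+Ctrl. Bcl6, a transcriptional repressor of B cells named in the series title, stood at 7.30 in WT+ETV6-RUNX1 and 6.75 in WT+Ctrl (difference 0.55, spread 0.38). Its levels were 8.86 in Btg1-/-+ETV6-RUNX1 and 6.33 in Btg1-/-+Ctrl, a larger difference of 2.53.

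The labels call these cells progenitors, and after the culture the arrays carried genes of more than 1 lineage. Of 39 B-cell progenitor genes on the array 31 could be compared, and of 23 mast cell granule genes 16. In WT+Ctrl cells the surrogate light chain gene Vpreb1 stood at 13.78 and the mast cell carboxypeptidase gene Cpa3 at 13.63. Of 28 erythroid genes 5 could be compared, and of 36 granulocyte and monocyte genes 7. Kit, which was used to select the cells, was placed in the IgE receptor and signalling list, and its level is not given here. In bulk RNA, fewer cells of a type and less RNA per cell cannot be told apart, and this holds for every lineage gene below.

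Differences were unequal in direction at the extremes. Over the 6123 genes the median difference was -0.02 and the 5th and 95th percentiles were -0.48 and 0.53. At least 2-fold higher in WT+ETV6-RUNX1 cells were 115 genes (1.88%), and at least 2-fold lower were 22 genes (0.359%), together 137 (2.24%). At 4-fold the counts were 14 higher (0.229%) and 0 lower, while at 1.5-fold they were closer, with 274 higher (4.47%) and 183 lower (2.99%). Genes with a difference above 0 made up 45.4% of those compared and genes below 0 made up 54.3%. Genes past 2-fold were mostly low on the arrays: 71 of the 115 higher genes and 19 of the 22 lower ones had a mean level under 8. Low levels were also common among all 6123 genes, with 1336 at a mean under 7 and 1119 at 7 to 8. Of these classes 2.77% and 3.04% were at least 2-fold higher, and 0.823% and 0.715% at least 2-fold lower. At mean levels of 9 or more, 25 genes were at least 2-fold higher and 1, Gldc, at least 2-fold lower. The lists of genes used here held 50 of the 115 higher and 8 of the 22 lower genes.

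**Figure D1:**
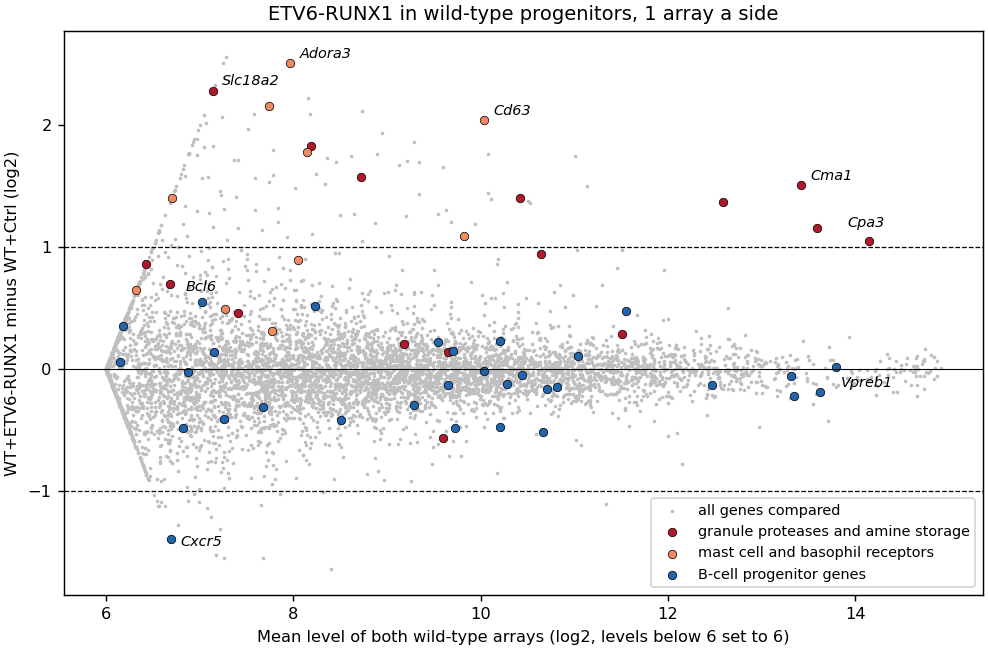
Log2 difference between the WT+ETV6-RUNX1 and WT+Ctrl arrays (vertical axis) against the mean log2 level of both arrays (horizontal axis), 1 point per gene for 6123 genes, with labelled genes named in the text. The 115 genes at least 2-fold higher reach 2.56, and the lowest of the 22 genes at least 2-fold lower lies at -1.64.

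The high-affinity IgE receptor has an IgE-binding alpha chain (Fcer1a), a signal-amplifying beta chain (Ms4a2) and a gamma chain (Fcer1g) that it shares with other Fc receptors. All 3 chains were higher with the fusion. Ms4a2 stood at 9.23 in WT+ETV6-RUNX1 and 7.14 in WT+Ctrl, and at 8.99 in Btg1-/-+ETV6-RUNX1 and 8.11 in Btg1-/-+Ctrl. Fcer1g stood at 11.89 in WT+ETV6-RUNX1 and 10.14 in WT+Ctrl, and at 12.15 in Btg1-/-+ETV6-RUNX1 and 11.46 in Btg1-/-+Ctrl. Fcer1a stood at 10.28 in WT+ETV6-RUNX1 and 9.08 in WT+Ctrl, and at 10.77 in Btg1-/-+ETV6-RUNX1 and 10.33 in Btg1-/-+Ctrl. For all 3 genes the WT+Ctrl array was the lowest of the 4, and the Btg1-/-+Ctrl array lay above it.

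The adaptors nearest to the receptor were higher too, while the enzymes downstream lay near or below 0. Lat2, a membrane scaffold of activated mast cells, was at 10.96 in WT+ETV6-RUNX1 and 9.19 in WT+Ctrl (difference 1.77, spread 0.15). Tyrobp, an adaptor with an activation motif like that of Fcer1g, was at 9.49 in WT+ETV6-RUNX1 and 7.74 in WT+Ctrl (difference 1.75, spread 0.23). Lat, the related scaffold of T cells and mast cells, differed by 0.95. The kinase gene Syk, which docks on the phosphorylated gamma chain, differed by -0.50, the phosphoinositide kinase gene Pik3cd by -0.82, and the kinase gene Btk, at 11.79 in WT+ETV6-RUNX1 and 11.76 in WT+Ctrl, by 0.03. B cells use Syk, Btk, Plcg2 and Pik3cd as well. Of the 16 IgE receptor and signalling genes, 5 were past 2-fold upward and 0 downward, against 1.88% and 0.359% of all genes. Their median was 0.18, against -0.02 over all genes.

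Secretory granules of mast cells hold proteases and amines bound to a proteoglycan core. Of 16 such genes compared, 15 lay above 0 (45.4% of all genes) and 8 were at least 2-fold higher (1.88%). Their median was 1.00. In the Btg1-/- arrays, which share no array with the wild-type comparison, 15 of these 16 were also above 0 (49.8% of all genes). Their median there was 0.55. The chymase gene Cma1 stood at 14.18 in WT+ETV6-RUNX1 and 12.67 in WT+Ctrl, and at 14.23 in Btg1-/-+ETV6-RUNX1 and 13.28 in Btg1-/-+Ctrl. Tryptases are the main trypsin-like enzymes of the granule. The tryptase gene Tpsab1 was at 9.10 in WT+ETV6-RUNX1 and 7.27 in WT+Ctrl (difference 1.83, spread 0.27). The other, Tpsb2, was at 13.27 in WT+ETV6-RUNX1 and 11.91 in WT+Ctrl (difference 1.37, spread 0.11). Mcpt4, a chymase of connective tissue mast cells, differed by 1.16 and the carboxypeptidase gene Cpa3 by 1.05, both with a spread of 0.11.

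Genes of the granule amines were higher as well. Hdc, whose product makes histamine from histidine, was at 11.12 in WT+ETV6-RUNX1 and 9.72 in WT+Ctrl (difference 1.40, spread 0.14). Tph1, which begins serotonin synthesis, was at 9.51 in WT+ETV6-RUNX1 and 7.93 in WT+Ctrl (difference 1.58, spread 0.21). Slc18a2, the transporter that loads amines into granules, was at 8.28 in WT+ETV6-RUNX1 and below the floor in WT+Ctrl, a bound of at least 4.86-fold. Hdc, Tph1 and the transporter gene Slc18a2 were thus each higher by 2-fold or more, Slc18a2 as a bound. Srgn, the proteoglycan core, differed by 0.94, with 11.12 in WT+ETV6-RUNX1 and 10.17 in WT+Ctrl. Genes of the membrane fusion machinery that many secretory cells share differed less, with Snap23 at 0.70, Unc13d at 0.46, Stxbp2 at 0.29 and Vamp8 at 0.21, and the complexin gene Cplx2 was at -0.56. Among 13 genes of heparin and chondroitin sulfate synthesis 1 was past 2-fold (2.24% of all genes) and the median was 0.12. That gene was Papss2, the sulfate donor synthase gene (at least 2.05-fold higher).

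Levels were also summed on the linear scale, with no floor, over all genes of a list on the array. For the 23 granule genes the sum was 85031 in WT+ETV6-RUNX1 and 38956 in WT+Ctrl. It was 84064 in Btg1-/-+ETV6-RUNX1 and 53296 in Btg1-/-+Ctrl. The arrays with the fusion were close to each other and both control arrays were lower. For the 39 B-cell progenitor genes the sum was 73112 in WT+ETV6-RUNX1 and 77661 in WT+Ctrl, against 95985 in Btg1-/-+ETV6-RUNX1 and 74543 in Btg1-/-+Ctrl. Such sums are set by the few highest genes of a list, and the part of cell composition in the differences was not tested.

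Of the receptors on the surface of mast cells and basophils, all 10 compared genes lay above 0 (45.4% of all genes). At least 2-fold higher were 6 (1.88% of all genes). The median was 1.25, and in the Btg1-/- arrays the same 10 had a median of 0.79. Adora3, the adenosine receptor that enhances mast cell degranulation in mice, was at 9.22 in WT+ETV6-RUNX1 and 6.71 in WT+Ctrl, and at 8.92 in Btg1-/-+ETV6-RUNX1 and 8.21 in Btg1-/-+Ctrl. Cd200r3, an activating receptor that pairs with Tyrobp, was at 8.82 in WT+ETV6-RUNX1 and 6.66 in WT+Ctrl (difference 2.15, spread 0.27). Cd63, a granule membrane protein that reaches the surface on degranulation, was at 11.06 in WT+ETV6-RUNX1 and 9.02 in WT+Ctrl (difference 2.04, spread 0.15). In each of these 3 genes WT+Ctrl was the lowest array.

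Fcgr3, the low-affinity activating IgG receptor that uses the Fcer1g chain, had another pattern. It was at 9.03 in WT+ETV6-RUNX1 and 7.25 in WT+Ctrl, and at 8.21 in Btg1-/-+ETV6-RUNX1 and 7.31 in Btg1-/-+Ctrl, so both control arrays lay close together and below both fusion arrays. Fcgr2b, its inhibitory counterpart, differed by 0.31. Mrgprb2, the receptor for basic secretagogues on connective tissue mast cells, differed by 1.09, and the ATP-gated channel gene P2rx1 was at least 2.64-fold higher. The interleukin 3 receptor genes Csf2rb2 and Il3ra differed by 0.90 and 0.49. Across 14 compared cytokine receptor genes of all kinds, 8 lay above 0 (45.4% of all genes) and 0 were past 2-fold (2.24%). Their median was 0.01, with the interleukin 7 receptor gene Il7r at -0.02.

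Leukotrienes and prostaglandin D2 are lipid mediators that mast cells make from arachidonic acid. Alox5, which begins leukotriene synthesis, was at 8.57 in WT+ETV6-RUNX1 and 6.99 in WT+Ctrl, and at 8.16 in Btg1-/-+ETV6-RUNX1 and 7.52 in Btg1-/-+Ctrl. Its membrane partner gene Alox5ap was at 12.00 in WT+ETV6-RUNX1 and 11.02 in WT+Ctrl (difference 0.98, spread 0.13). Hpgds, the prostaglandin D2 synthase of blood cells, was at least 3.12-fold higher, and Pla2g7, which inactivates platelet-activating factor, at least 3.04-fold. Of 5 genes of this group compared, all 5 lay above 0 (45.4% of all genes) and 3 were at least 2-fold higher (1.88%). The other 14 genes of the group were under the floor on both wild-type arrays, and a level below the floor does not show that a gene was silent.

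**Figure D2:**
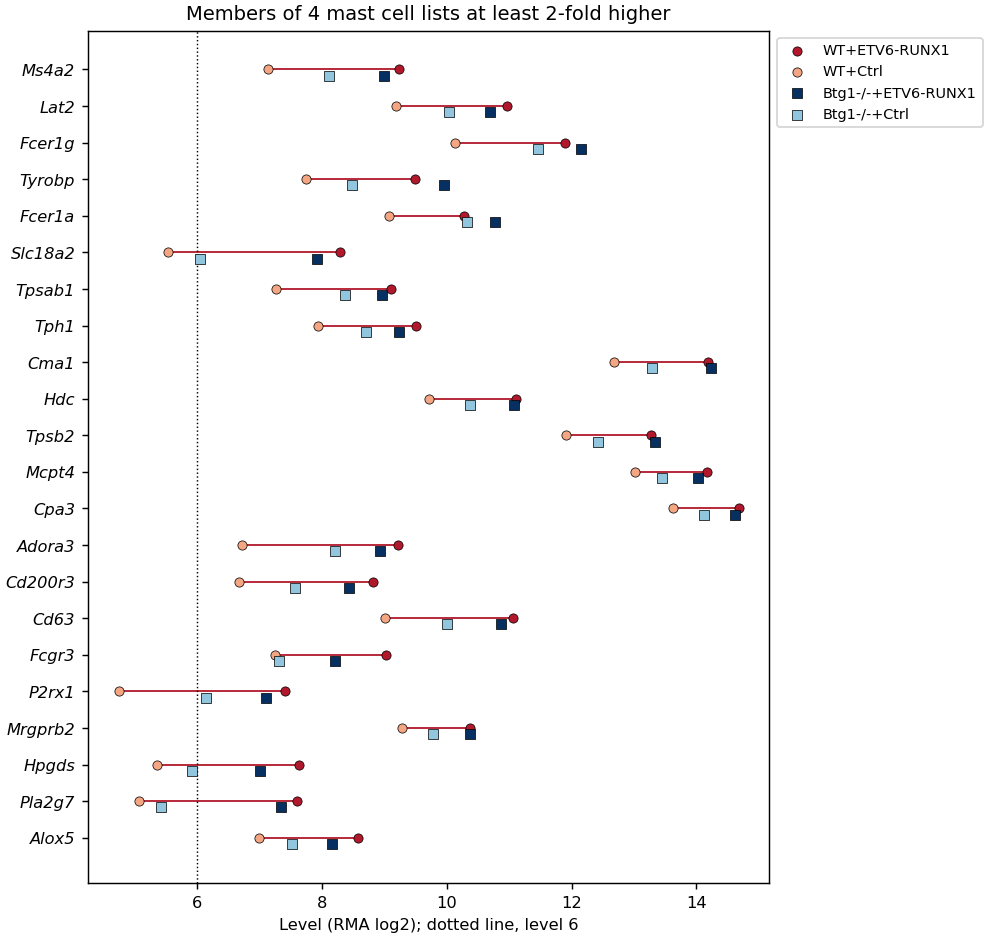
Log2 levels of mast cell genes on each of the 4 arrays, 1 point per array, with the dotted line at the floor of 6. The WT+Ctrl point is the lowest of the 4 for 20 of the 22 genes at least 2-fold higher in the 4 mast cell lists. Btg1-/-+Ctrl lies between the wild-type arrays for 19. The genes were chosen by their wild-type difference, which favours both places.

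Over the 4 mast cell lists (IgE receptor, granule, surface receptors, lipid mediators) 47 different genes were compared. Of them 22 were past 2-fold upward and 0 downward, against 1.88% and 0.359% of all 6123 genes. The lists were written with earlier results of these data known. For these 22 the median level was 9.50 in WT+ETV6-RUNX1 and 7.84 in WT+Ctrl, against 9.59 in Btg1-/-+ETV6-RUNX1 and 8.59 in Btg1-/-+Ctrl. All 22 were above 0 in the Btg1-/- comparison (49.8% of all genes), where 4 reached 2-fold (1.63% of all genes). These 4 were Slc18a2, Tyrobp, Hpgds and Pla2g7. The WT+Ctrl array was the lowest of the 4 arrays for 20 of the 22, where it was lowest for 19.1% of all 6123 genes. The 22 were chosen by a low WT+Ctrl level against WT+ETV6-RUNX1, so this share of all genes is no baseline for them. The part of a low mast cell content of that culture in these values was not tested.

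Promoters of the genes past 2-fold were read for short words bound by RUNX and GATA factors, since the fusion keeps the RUNX1 DNA-binding domain and Gata2 was among the higher genes. The windows are those of RefSeq (GRCm38.p6), from 250 bases before to 50 after the listed start of each gene. The sequences of 4 are shown, for the 3 largest higher differences with a RUNX word among genes at the floor or above on both arrays, and for the lowest such difference. Capitals mark RUNX words (TGTGGT or TGCGGT) and GATA words (AGATAA), and the same words read on the opposite strand.
Ms4a2, chr19:11623670-11623969, minus strand: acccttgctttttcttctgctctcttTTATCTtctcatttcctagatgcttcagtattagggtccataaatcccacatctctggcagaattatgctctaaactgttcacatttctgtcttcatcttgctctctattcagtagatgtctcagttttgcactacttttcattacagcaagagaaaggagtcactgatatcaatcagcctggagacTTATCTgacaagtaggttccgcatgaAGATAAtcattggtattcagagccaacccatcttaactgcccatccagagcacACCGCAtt
Cyp11a1, chr9:57997774-57998073, plus strand: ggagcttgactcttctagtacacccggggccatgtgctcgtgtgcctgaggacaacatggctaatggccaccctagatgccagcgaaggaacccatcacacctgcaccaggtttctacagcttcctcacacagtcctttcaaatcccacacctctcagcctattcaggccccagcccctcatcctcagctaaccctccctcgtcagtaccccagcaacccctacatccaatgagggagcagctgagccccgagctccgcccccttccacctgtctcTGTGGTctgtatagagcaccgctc
Fcgr3, chr1:171059354-171059653, minus strand: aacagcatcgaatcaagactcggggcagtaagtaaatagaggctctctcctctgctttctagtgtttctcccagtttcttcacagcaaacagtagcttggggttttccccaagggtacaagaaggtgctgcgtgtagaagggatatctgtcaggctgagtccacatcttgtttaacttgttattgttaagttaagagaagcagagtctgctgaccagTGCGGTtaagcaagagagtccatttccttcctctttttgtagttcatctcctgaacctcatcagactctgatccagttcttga
Apbb1, chr7:105581442-105581741, minus strand: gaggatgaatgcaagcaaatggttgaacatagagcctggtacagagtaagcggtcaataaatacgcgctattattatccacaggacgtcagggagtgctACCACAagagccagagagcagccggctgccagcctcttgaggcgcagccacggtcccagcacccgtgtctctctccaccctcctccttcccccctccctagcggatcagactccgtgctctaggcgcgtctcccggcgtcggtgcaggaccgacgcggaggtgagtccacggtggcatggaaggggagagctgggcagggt

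The Ms4a2 window held 3 GATA words and, downstream of the start, 1 RUNX word. Cyp11a1 and Fcgr3, with differences of 1.82 and 1.78, and Apbb1, with -1.55, held 1 RUNX word each and no GATA word. Of the 115 higher genes 90 had a window, and 28 of these (31.1%, exact 95% interval 21.8% to 41.7%) held a RUNX word, against 1027 of 4752 (21.6%) of all genes compared. A GATA word was in 11 of the 90 (12.2%, exact 95% interval 6.26% to 20.8%), against 6.12% of all genes compared and 11.4% of all 27025 promoters. Of the 22 lower genes 15 had a window, of which 2 held a RUNX word and 0 a GATA word (exact 95% upper bound 21.8%). Intervals cover counting error only, and a match is a word in the letters and not a bound site.

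Transcription factors of the mast cell and early progenitor lineages were read next. Gata2, which keeps blood stem cells and drives mast cell genes, was at 11.89 in WT+ETV6-RUNX1 and 10.39 in WT+Ctrl, and at 11.78 in Btg1-/-+ETV6-RUNX1 and 10.92 in Btg1-/-+Ctrl. Tal1, which forms complexes with GATA factors, was at 7.77 in WT+ETV6-RUNX1 and below the floor in WT+Ctrl, at least 3.40-fold higher. Id2, an inhibitor of E proteins and so of B-cell commitment, was at 8.37 in WT+ETV6-RUNX1 and 6.81 in WT+Ctrl (difference 1.57, spread 0.28). Of 13 factors of this list compared, 11 lay above 0 (45.4% of all genes) and the median was 0.20. At least 2-fold higher were 4 (1.88% of all genes), these 3 and the NF-E2 subunit gene Nfe2, at 1.08.

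Meis2, a homeobox partner of HOX proteins, was at 8.28 in WT+ETV6-RUNX1 and 6.21 in WT+Ctrl (difference 2.07, spread 0.32), and its relative Meis1 differed by 0.82. Cd34, a surface sialomucin of progenitors that mouse mast cells also carry, was at least 3.70-fold higher. Ly6a, which encodes the stem cell antigen Sca-1, differed by 0.81, while the stem cell and T-lineage surface gene Thy1 differed by -0.91 and Eng by -0.62. Of 13 stem and early progenitor genes compared, 10 lay above 0 (45.4% of all genes) and 4 were at least 2-fold higher (1.88%). Their median was 0.42. Gata2 and Tal1 stand in both lists, so the counts of the lists overlap.

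Genes of megakaryocytes and platelets lay above 0 in all 9 compared members (45.4% of all genes did). Their median was 1.08 in wild type and 0.88 in the Btg1-/- arrays. Itga2b, the alpha IIb chain of the fibrinogen receptor, was at 7.67 in WT+ETV6-RUNX1 and below the floor in WT+Ctrl (at least 3.19-fold), and at 7.73 in Btg1-/-+ETV6-RUNX1 and 6.17 in Btg1-/-+Ctrl. Nfe2, needed for platelet release, was at 8.47 in WT+ETV6-RUNX1 and 7.39 in WT+Ctrl, and at 8.69 in Btg1-/-+ETV6-RUNX1 and 7.36 in Btg1-/-+Ctrl. In both genes the control arrays lay close together and both fusion arrays lay above them. The tetraspanin gene Cd9 differed by 1.60, the pleckstrin gene Plek by 1.31 and Vwf, the von Willebrand factor gene, by at least 2.20-fold. Of 25 such genes 16 were under the floor on both wild-type arrays. Cd9 and Nfe2 are expressed in mast cells too.

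Complement genes held the largest bound. C2, a serine protease of the classical pathway, was at 8.56 in WT+ETV6-RUNX1 and below the floor at 5.86 in WT+Ctrl (at least 5.90-fold), and at 8.33 in Btg1-/-+ETV6-RUNX1 and 6.75 in Btg1-/-+Ctrl. Cd59a, which blocks the membrane attack complex, was at 8.33 in WT+ETV6-RUNX1 and 5.68 in WT+Ctrl, and at 8.62 in Btg1-/-+ETV6-RUNX1 and 6.06 in Btg1-/-+Ctrl. Cd55, which speeds the decay of complement convertases, differed by 1.76, and the properdin gene Cfp, which stabilizes the alternative convertase, by 1.38. Another regulator, Cr1l, differed by -0.37. Thus 4 of 5 compared genes were at least 2-fold higher (1.88% of all genes), 1 component, 1 stabilizer and 2 inhibitors. The median of the 5 was 1.76 in wild type and 1.10 in the Btg1-/- arrays. The other 14 complement genes were under the floor on both wild-type arrays.

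A pair of monocyte-attracting chemokine genes were higher. Ccl2 was at 8.63 in WT+ETV6-RUNX1 and 6.54 in WT+Ctrl, and at 8.45 in Btg1-/-+ETV6-RUNX1 and 7.58 in Btg1-/-+Ctrl. Ccl7 was at 10.22 in WT+ETV6-RUNX1 and 8.36 in WT+Ctrl, and at 9.86 in Btg1-/-+ETV6-RUNX1 and 9.38 in Btg1-/-+Ctrl. The lymphotoxin genes Lta and Ltb differed by -0.77 and -0.72 and Tnf by -0.47. Of 9 ligand genes compared 3 lay above 0 (45.4% of all genes) and the median was -0.04.

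Among cell cycle genes 1 D-type cyclin stood out. Ccnd1 was at 8.50 in WT+ETV6-RUNX1 and 6.54 in WT+Ctrl, and at 8.51 in Btg1-/-+ETV6-RUNX1 and 7.32 in Btg1-/-+Ctrl. The other D cyclins, Ccnd2 and Ccnd3, differed by -0.36 and -0.17, with Ccnd2 at 11.22 in WT+ETV6-RUNX1 and 11.58 in WT+Ctrl. Cdkn2a, a tumor suppressor gene that holds back division, was at 6.51 in WT+ETV6-RUNX1 and 7.64 in WT+Ctrl (difference -1.14, spread 0.36), and at 5.31 in Btg1-/-+ETV6-RUNX1 and 6.58 in Btg1-/-+Ctrl. Its level was lower on each fusion array than on the control array of the same genotype. The 30 DNA replication genes compared had a median of -0.03 with 0 past 2-fold, and the 23 mitosis genes a median of -0.10 with 0 past 2-fold. Past 2-fold were 2.24% of all genes. Over 17 genes of MYC activity and ribosome assembly the median was -0.06, and it was -1.27 in the Btg1-/- arrays.

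Immediate early genes, which growth factor signals switch on within minutes, were mixed. Fos was at 9.29 in WT+ETV6-RUNX1 and 8.01 in WT+Ctrl (difference 1.27, spread 0.23), and Ier3 at 10.80 in WT+ETV6-RUNX1 and 9.36 in WT+Ctrl (difference 1.45, spread 0.15). Egr1 differed by 0.63 and Dusp1 by 0.53, while Jun (-0.28), Junb (-0.27) and Jund (-0.29) lay below 0. Over 11 genes the median was 0.45. Lysosome genes lay above 0 in 23 of 32 (45.4% of all genes), with a median of 0.19. Besides Cd63, 1 of them was past 2-fold, the beta-hexosaminidase subunit gene Hexa, at 9.09 in WT+ETV6-RUNX1 and 7.58 in WT+Ctrl. Beta-hexosaminidase is also released from mast cell granules.

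Among the 30 largest differences measured on both sides were genes outside these lineages' lists. Neo1, a receptor of netrins and a co-receptor of bone morphogenetic proteins, was at 8.07 in WT+ETV6-RUNX1 and 6.06 in WT+Ctrl, and at 7.91 in Btg1-/-+ETV6-RUNX1 and 6.43 in Btg1-/-+Ctrl. Cyp11a1, which begins steroid synthesis, differed by 1.82, Cadm1, an adhesion molecule that joins mast cells to other cells, by 1.83, and the matrix protein gene Emilin2 by 1.93. Slc45a3, Rab32, Camk1 and Scamp1 differed by 1.70, 1.67, 1.73 and 1.80. Cadm1 lay at 7.68 in Btg1-/-+ETV6-RUNX1 and 7.52 in Btg1-/-+Ctrl, a difference of 0.16, and the glucose transporter gene Slc2a6 differed there by 0.27 against 1.70 in wild type.

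Bounds gave a further 31 higher genes. Pmp22, a peripheral myelin protein, was at 8.51 in WT+ETV6-RUNX1 and 5.84 in WT+Ctrl, and at 7.997 in Btg1-/-+ETV6-RUNX1 and 6.55 in Btg1-/-+Ctrl. Itgb4, the beta chain of the laminin-binding integrin of epithelia, was at 7.86 in WT+ETV6-RUNX1 and 4.39 in WT+Ctrl (at least 3.63-fold), and at 8.59 in Btg1-/-+ETV6-RUNX1 and 4.87 in Btg1-/-+Ctrl (at least 6.02-fold). Cited4, a co-activator of CBP and p300, was at 7.999 in WT+ETV6-RUNX1 and 5.29 in WT+Ctrl, and at 8.16 in Btg1-/-+ETV6-RUNX1 and 6.21 in Btg1-/-+Ctrl. Itgb4 was below the floor on both control arrays, and so was Pdlim4, at 7.06 in WT+ETV6-RUNX1 and 2.72 in WT+Ctrl against 7.11 in Btg1-/-+ETV6-RUNX1 and 3.63 in Btg1-/-+Ctrl. The aminopeptidase gene Anpep (CD13) was at least 3.58-fold higher, the purinergic receptor gene P2ry14 at least 3.39-fold, the prolyl hydroxylase gene P4ha2 at least 4.25-fold and Rgs1 at least 3.89-fold. Prg3, an eosinophil granule gene, was at least 2.40-fold higher, while 12 of 16 eosinophil and basophil genes were under the floor on both wild-type arrays.

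Genes lower with the fusion were few and spread over other functions. Clic6, a chloride intracellular channel gene, was at 7.59 in WT+ETV6-RUNX1 and 9.22 in WT+Ctrl, and at 7.27 in Btg1-/-+ETV6-RUNX1 and 8.53 in Btg1-/-+Ctrl. Apbb1, an adaptor that binds the tail of the amyloid precursor protein, was at 6.90 in WT+ETV6-RUNX1 and 8.45 in WT+Ctrl, and at 6.98 in Btg1-/-+ETV6-RUNX1 and 8.19 in Btg1-/-+Ctrl. In both genes the fusion arrays lay below both control arrays. Aph1b, a gamma-secretase subunit, was at 6.41 in WT+ETV6-RUNX1 and 7.94 in WT+Ctrl, but at 7.48 in Btg1-/-+ETV6-RUNX1 and 7.45 in Btg1-/-+Ctrl. The other gamma-secretase genes compared, Psen2, Psenen and Ncstn, differed by 0.62, 0.10 and 0.07. Notch1, a substrate of that enzyme, differed by -0.77.

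Dnase1l3, a secreted nuclease, was at 6.49 in WT+ETV6-RUNX1 and 8.03 in WT+Ctrl, and below the floor on both Btg1-/- arrays. Ly9, a receptor of the SLAM family on lymphocytes, was at 6.56 in WT+ETV6-RUNX1 and 7.87 in WT+Ctrl, and at 5.88 in Btg1-/-+ETV6-RUNX1 and 7.61 in Btg1-/-+Ctrl. Cxcr5, the receptor that guides B cells to follicles, was below the floor at 5.62 in WT+ETV6-RUNX1 and at 7.39 in WT+Ctrl (at least 2.62-fold lower), and at 4.19 in Btg1-/-+ETV6-RUNX1 and 7.09 in Btg1-/-+Ctrl. For Ly9 and Cxcr5 the control arrays of both genotypes stood close together, above both fusion arrays. Gldc, which cleaves glycine in mitochondria, was at 10.79 in WT+ETV6-RUNX1 and 11.90 in WT+Ctrl (difference -1.10, spread 0.14), and at 9.09 in Btg1-/-+ETV6-RUNX1 and 11.87 in Btg1-/-+Ctrl. Ifi30, a lysosomal thiol reductase of antigen processing, was at 7.10 in WT+ETV6-RUNX1 and 8.21 in WT+Ctrl, and at 6.84 in Btg1-/-+ETV6-RUNX1 and 8.18 in Btg1-/-+Ctrl.

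**Figure D3:**
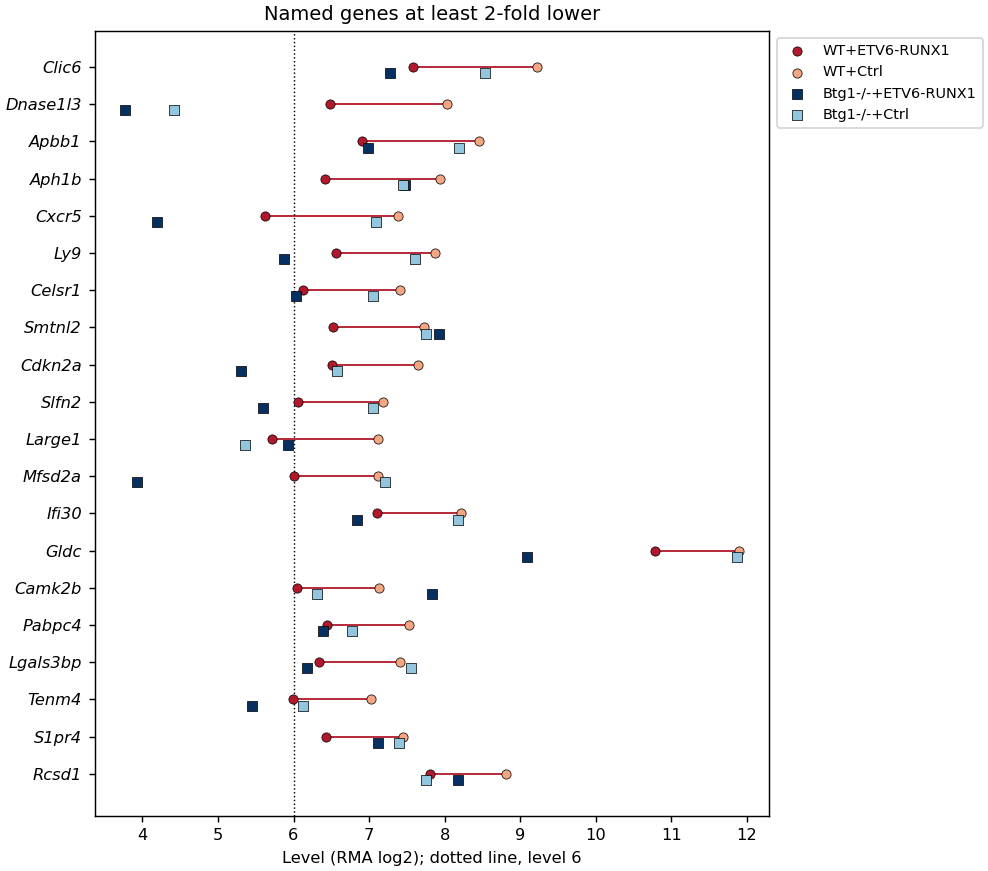
Log2 levels on each of the 4 arrays of genes lower in WT+ETV6-RUNX1 than in WT+Ctrl, 1 point per array, with the dotted line at the floor of 6. Clic6, Apbb1, Ly9 and Gldc lie lower on both fusion arrays than on both control arrays, and Aph1b lies low on the WT+ETV6-RUNX1 array.

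B-cell progenitor genes differed little in wild type. Of 31 compared 11 lay above 0 and 20 below (45.4% and 54.3% of all genes). At least 2-fold higher were 0 (1.88% of all genes), and at least 2-fold lower was 1, Cxcr5 (0.359%). The median was -0.12 against -0.02 over all genes. The lineage factor gene Ebf1 was at 9.78 in WT+ETV6-RUNX1 and 9.63 in WT+Ctrl. Vpreb1 was at 13.80 in WT+ETV6-RUNX1 and 13.78 in WT+Ctrl, and Cd79b, a signalling chain of the B-cell receptor, at 13.29 in WT+ETV6-RUNX1 and 13.34 in WT+Ctrl. Below 0 lay the pre-B transcription factor genes Irf4 (-0.52), Lef1 (-0.48) and Spib (-0.29) and the pre-B receptor signalling genes Blnk (-0.48) and Blk (-0.42). In the Btg1-/- arrays 30 of the 31 lay above 0, with a median of 0.43, where 49.8% of the 6123 genes lay above 0.

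Signals that B-cell progenitors depend on were read by their target genes. Of 17 STAT5 target and feedback genes, which interleukin 7 acts on, 7 lay above 0 (45.4% of all genes). Their median was -0.26. The feedback inhibitor gene Cish was at 10.73 in WT+ETV6-RUNX1 and 11.31 in WT+Ctrl (difference -0.58), and at 8.94 in Btg1-/-+ETV6-RUNX1 and 11.07 in Btg1-/-+Ctrl. Bcl2, which protects lymphocytes from death, differed by -0.97 and Socs3 by -0.68, while Socs2, at 13.27 in WT+ETV6-RUNX1 and 13.17 in WT+Ctrl, differed by 0.10. Of 17 interferon-induced genes 3 lay above 0 (45.4% of all genes), with a median of -0.31. None was past 2-fold (2.24% of all genes), the lowest being Gbp6 (-0.94), Ifi27 (-0.78) and Gbp3 (-0.71). Among 7 genes of dendritic cells and antigen presentation by MHC class II, 1 was above 0 (45.4% of all genes). Their median was -0.34.

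Genes of RUNX factors and their partners showed small differences. Of 8 genes of RUNX factors, CBFB, ETV6 and corepressors compared, 7 lay below 0 (54.3% of all genes). Their median was -0.12, with values from -0.41 (the corepressor gene Ncor1) to 0.07. Of 8 genes listed as responsive to ETV6-RUNX1 4 could be compared, Pik3c3 at 0.10, Spi1 at 0.04, Mdm2 at -0.05 and Birc5 at -0.11. Autophagy genes, which Pik3c3 serves, had a median of -0.03 over 16 genes, and p53 target genes a median of -0.05 over 15. In the TGF-beta list 12 genes had a median of 0.02, with Id2 and Neo1 past 2-fold (2.24% of all genes). Tgfbr2 was at 0.26 and Smad3 at -0.39.

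**Figure D4:**
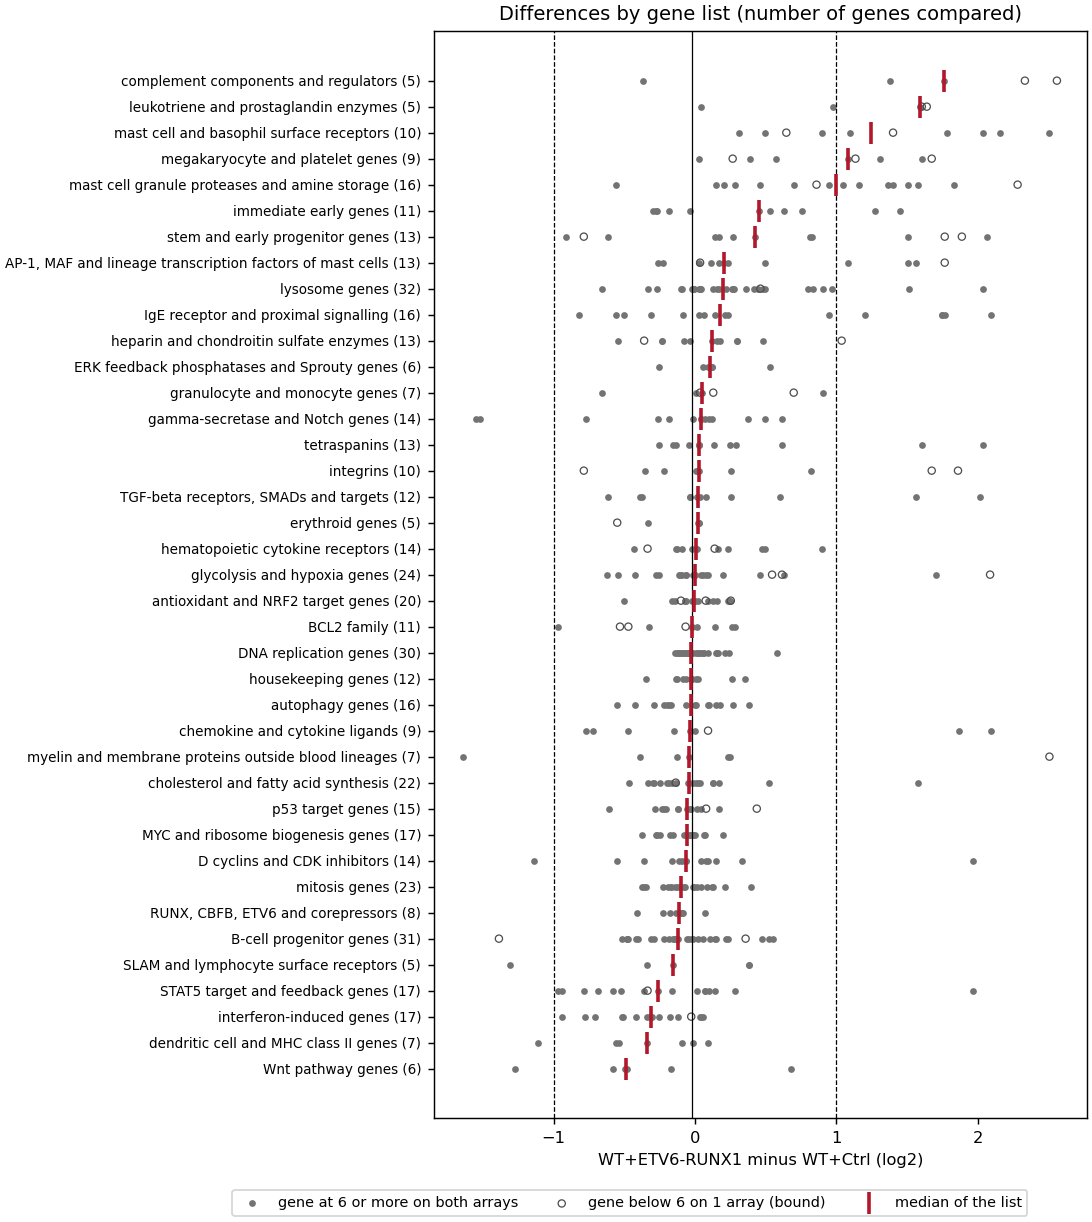
Log2 differences between WT+ETV6-RUNX1 and WT+Ctrl for the genes of each list, 1 point per gene, with open points for bounds, a red bar at the list's median and a solid line at the median of all genes (-0.02). Complement, lipid mediator, mast cell receptor, megakaryocyte and granule lists have medians from 1.00 to 1.76, and most other lists lie near the solid line. The immediate early and stem lists have medians of 0.45 and 0.42. The lowest medians are those of Wnt pathway genes (-0.49, 6 genes), the MHC class II list (-0.34) and interferon-induced genes (-0.31).

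The Btg1-/- arrays allowed the same genes to be read on cultures that played no part in choosing them. Of the 115 higher genes 113 (98.3%) lay above 0 in Btg1-/-+ETV6-RUNX1 against Btg1-/-+Ctrl, where 49.8% of all 6123 genes did, and 30 (26.1%) were at least 2-fold higher, against 1.63% of all genes. Their median difference was 0.78 in the Btg1-/- arrays and 1.51 in wild type, the comparison by which they were chosen, so the sizes cannot be set against each other. Of the 22 lower genes 16 (72.7%) lay below 0 in the Btg1-/- arrays, where 47.4% of all genes did, and 10 (45.5%) were at least 2-fold lower, against 2.38%. Genes differ together along cell types and are not independent, so these shares carry no test.

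Levels of the higher genes were read on all 4 arrays. The WT+Ctrl array was the lowest for 100 of the 115 and the WT+ETV6-RUNX1 array the highest for 84. These arrays held those places for 19.1% and 19.3% of all genes. The 115 were chosen by a WT+Ctrl level at least 2-fold below that in WT+ETV6-RUNX1, which in itself favours these places. The shares of all genes are therefore no baseline for them. Btg1-/-+Ctrl lay between the wild-type arrays for 98 of the 115, a place that a wide gap between those arrays also favours. The median level of the 115 was 8.33 in WT+ETV6-RUNX1 and 6.66 in WT+Ctrl, against 8.20 in Btg1-/-+ETV6-RUNX1 and 7.36 in Btg1-/-+Ctrl. The WT+ETV6-RUNX1 array was the lowest for 7 of the 22 lower genes (20.3% of all genes) and the WT+Ctrl array the highest for 18 (23.7%). The choice of these 22 by the same arrays favours these places too. The median level of these 22 was 6.44 in WT+ETV6-RUNX1 and 7.59 in WT+Ctrl, against 6.43 in Btg1-/-+ETV6-RUNX1 and 7.30 in Btg1-/-+Ctrl. Both fusion arrays were alike in these medians, and the control arrays lay further apart for the higher genes than for the lower ones.

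**Figure D5:**
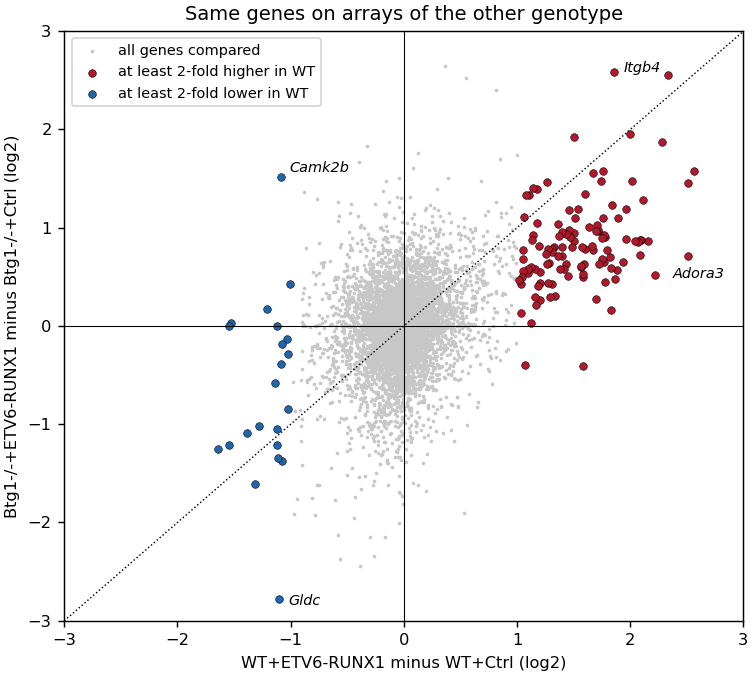
Log2 difference with ETV6-RUNX1 in Btg1-/- cells (vertical axis) against that in wild-type cells (horizontal axis), 1 point per gene, with the dotted line where both are equal. Of the 115 genes at least 2-fold higher in wild type 113 lie above 0 on the vertical axis, and of the 22 lower genes 16 lie below it.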

How the data were processed

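RNA of 4 cultures was hybridized to Illumina mouse arrays, 1 array per group, so groups were set by the labels and no test was possible. The deposited table holds log2 levels that the authors normalized by RMA, per the submitters' processing notes. The handling of genes with several probes was not stated. Another 8 columns, of non-normalized signals, match no label and were not used. Gene names were updated through RefSeq (GRCm38.p6): 14304 matched by symbol, 2643 by synonym, and 1166 kept the file's name.

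Levels below 6 were raised to 6, differences were taken between arrays, and 2-fold was the threshold. The members and all 43 lists were chosen with earlier results of these data known. Genes named were the 30 largest higher differences and the lowest 17 (up to 20 were sought) with both arrays at the floor, all bounds past 2-fold (31 higher and 3 lower with gene symbols), members of the lists, and 7 set genes (Btg1, Bcl6, Etv6, Runx1, Actb, Gapdh, Hprt). The alternatives were floors of 5 and 7, no floor, genes at the floor on both arrays, equal 75th percentiles, centring by the median or by lowess, and, added after seeing the data, a requirement of 3 times the spread. The number of arrays limits the precision. Python 3.11.15, numpy 2.4.6, pandas 2.3.3, scipy 1.17.1, statsmodels 0.14.6 and matplotlib 3.10.9 were used, and the calculations were tested on simulated data.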

Additional observations from a re-analysis of the deposited data

Results flagged for a closer look

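In 2 genes past 2-fold in wild type the difference ran the other way in the Btg1-/- arrays. Camk2b, a subunit of the calcium and calmodulin-dependent kinase II, differed by 1.52 in Btg1-/- cells and by -1.09 in wild type. It stood at 6.04 in WT+ETV6-RUNX1 and 7.13 in WT+Ctrl, and at 7.83 in Btg1-/-+ETV6-RUNX1 and 6.32 in Btg1-/-+Ctrl. Rcsd1, which encodes an actin-capping regulator, differed by 0.43 in Btg1-/- cells and by -1.01 in wild type, with 7.81 in WT+ETV6-RUNX1 and 8.82 in WT+Ctrl, and 8.18 in Btg1-/-+ETV6-RUNX1 and 7.76 in Btg1-/-+Ctrl. With 1 array a group the difference was not tested in either gene.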

How the results depend on the processing

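No paired analysis was possible because each group had 1 sample. No difference of a named gene changed sign under the alternatives run. Of the list medians, 12 values in 6 lists changed sign, all in lists whose median lay between -0.01 and 0.02. The choice of floor moved the counts. The 115 higher genes became 180 with a floor of 5 or with no floor and 68 with a floor of 7, and the 22 lower genes became 61, 61 and 7 under these settings. With the added requirement of 3 times the spread 102 higher and 13 lower genes were left. Equal 75th percentiles, centring on the median, lowess centring and restriction to genes at the floor on both arrays gave 84 to 124 higher and 18 to 23 lower genes. Scaling and centring moved the differences by -0.02 to 0.05.

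Of the list medians 287 of 297 values stayed within the spread. With no floor the surface receptors of mast cells stood at 1.91 and the eosinophil and basophil genes at 1.34. With a floor of 5 the lipid mediator genes stood at 0.98, the granulocyte and monocyte genes at 0.34 and the eosinophil and basophil genes at 0.92. With a floor of 7 the lipid mediator genes stood at 0.64, the megakaryocyte genes at 0.67 and the mast cell transcription factors at 0.49. Over genes at the floor on both arrays the lipid mediator genes stood at 0.98 and the complement genes at 1.38. Of the values of named genes under these alternatives 615 of 701 stayed within the spread. Low signal limits the genes near the floor. Of the 115 higher genes 71 had a mean level under 8, and of all 6123 genes 1336 had one under 7 and 1119 one of 7 to 8.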
